A study of Mus musculus with 55 samples.

Results

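The response of mature neurons to 180 min of KCl in the maturation experiment was measured in 6 samples, 3 labelled 23DIV_KCl_3h and 3 labelled 23DIV_Basal_0min, taken by those labels from the 55 samples of the series. The maturation experiment held 28 samples and a separate stimuli experiment held 27. All cultures were primary neurons of mixed sex from the forebrain (cortex and hippocampus) of CD1 mouse embryos at E16 to E17.5, and the 6 cultures were kept for 23 days in vitro (DIV). The study groups these samples with cultures of slightly different age under 1 mature stage. KCl was added to the growth medium at 55 mM and stayed there until lysis. Activity was not blocked before stimulation, and basal cultures were mock-treated. Other samples of the same experiment were used for comparison: 3 cultures after 15 min of KCl, 2 cultures after 180 min of 4APBic (50 µM bicuculline, a GABA-A receptor blocker, with 2.5 mM 4-aminopyridine, a potassium channel blocker), and 3 basal and 3 KCl 180 min cultures at 7DIV. From the stimuli experiment came 3 basal and 2 KCl 180 min cultures at 21DIV. The labels do not say whether replicates were separate dissections or wells of 1 plating. The p-values below therefore measure the spread between replicates, estimated over all groups of an experiment, which may be technical.

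High extracellular potassium depolarizes the membrane directly, opens L-type voltage-gated calcium channels and lets calcium activate kinases that phosphorylate CREB and the serum response factor complex at promoters. Genes that need no new protein for their transcription, the immediate early genes, respond within minutes, and their products, such as the FOS and JUN proteins that pair into AP-1, then act on effector genes that shape synapses, dendrites and secreted signals. Prolonged calcium entry also places demands on energy supply and protein folding.

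The 3 basal samples held 5676665, 5578041 and 9254444 counts on genes, and the 3 KCl samples 5013944, 5088478 and 4103047. Between 16925 and 19969 genes had at least 1 count in a sample. Values below are CPM, counts scaled to a common library size with TMM factors, in the order of the replicates, and values after ± are standard errors of the log2 fold change. The neuron markers summed to between 11407 and 12320 CPM in basal and between 10890 and 11178 CPM in KCl samples, lower and without overlap. For scale, the groups did not overlap in 23.9% of all tested genes. Astrocyte markers summed to between 9734 and 10644 CPM in basal and between 7205 and 11497 CPM in KCl samples, so the cultures were not purely neuronal. Markers of the oligodendrocyte lineage summed to 2600 to 3409 CPM in basal and to 1399 to 1898 CPM in KCl samples, with no overlap. Microglia, endothelial, fibroblast and choroid plexus markers each summed to at most 81.6 CPM. The microglial sum was 11.9 to 16.9 CPM in basal and 19.5 to 24.2 CPM in KCl samples and the endothelial sum 13.6 to 20.4 CPM and 11.01 to 13.4 CPM, both without overlap, and the microglial genes C1qc, Trem2 and Itgam were at 0 in all 6 samples. In bulk samples of this kind, fewer cells of a type and less RNA per cell cannot be told apart. Replicate 1 of each group lay toward the other group: the median log2 difference from the basal mean over all genes that rose was 0.75 in KCl replicate 1 against 1.22 and 1.30 in replicates 2 and 3, and basal replicate 1 lay at 0.17 where the other basal samples lay at -0.13 and -0.05.

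After 180 min of KCl, 350 genes were higher and 224 lower than in basal neurons, of 11746 genes tested (edgeR's quasi-likelihood test, adjusted p under 0.05 and at least 1.5-fold). That is 4.89% of all tested genes, 2.98% in the upward and 1.91% in the downward direction. The rises were the larger changes, with a median log2 fold change of 1.12 over the genes called higher and of -0.89 over those called lower. In 499 of the 574 called genes the 3 KCl samples did not overlap the 3 basal samples, and the same was true of 23.9% of all tested genes. The count of calls depended on single libraries. It was 886 without KCl replicate 1, 718 without basal replicate 1 and 1118 without both, and it fell to 230 without KCl replicate 2, 253 without KCl replicate 3, 314 without basal replicate 2 and 277 without basal replicate 3.

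**Figure D1:**
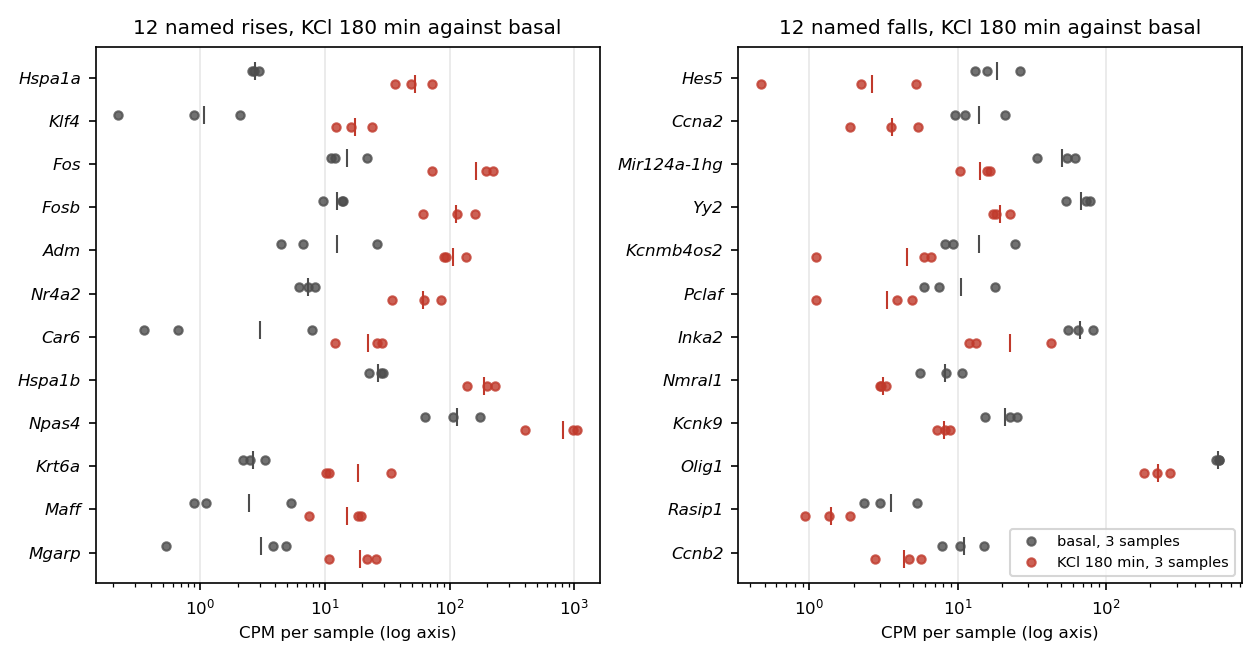
CPM (log axis) of the 12 named rises and the 12 named falls in each of the 3 basal and 3 KCl 180 min samples, 1 point a sample and a vertical tick for the group mean. The KCl points of each named rise lie above all its basal points and those of each named fall below them, as the naming rule required.

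**Figure D2:**
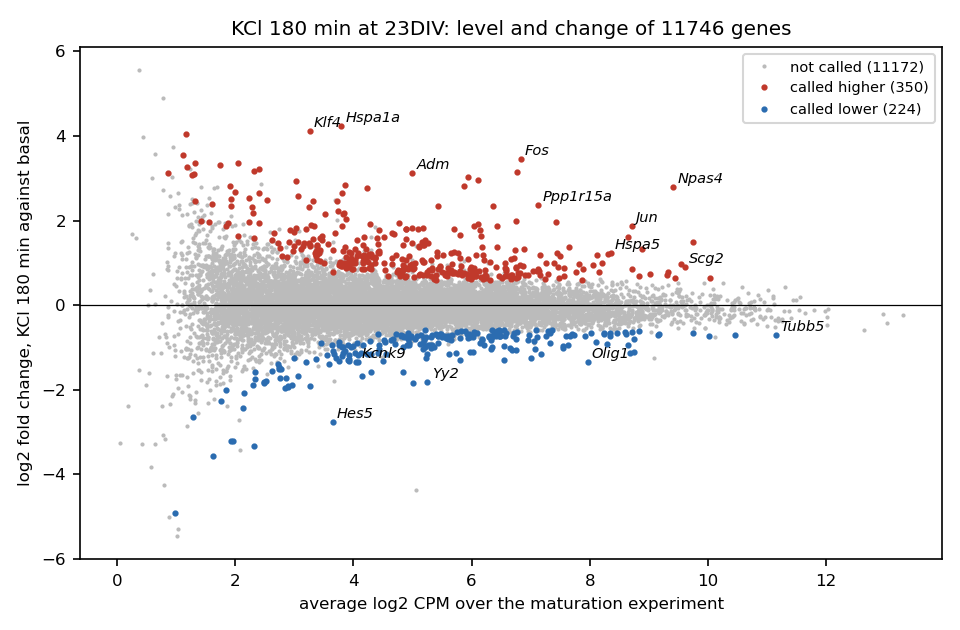
Average level of each of the 11746 tested genes (log2 CPM, x axis) against its log2 fold change after 180 min of KCl (y axis), with the 350 genes called higher and the 224 called lower in colour. Called genes are found at low and at high levels, and the largest changes in both directions are at low average levels.

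The AP-1 family had the largest share of members called higher among the lists. Of its 15 listed genes 11 were expressed above the filter, and 8 of them rose (7 to 9 with 1 library left out), with none lower and a median log2 fold change of 2.02 over the 11 genes against -0.02 over all tested genes. Fos (chr12:85473890-85477274 of GRCm38.p6), the prototype immediate early gene, had 21.6, 11.3 and 12.1 CPM in basal and 72.2, 194 and 223 CPM in KCl samples. All KCl samples lay above all basal samples, and the log2 fold change was 3.45 ± 0.30 (adjusted p = 6.19e-09). Fosb (chr7:19302696-19310118), which also gives rise to the stable splice form ΔFosB, went from 13.8, 9.66 and 13.9 CPM to 61.3, 114 and 159.8 CPM (3.15 ± 0.37 on the log2 scale, adjusted p = 4.22e-06). Among the JUN partners, Junb rose by 2.35 ± 0.22 on the log2 scale and the much more abundant Jun by 1.87 ± 0.23, from 223, 159 and 196 CPM to 457, 808 and 851 CPM. Atf3, a stress-responsive member, reached 23.9, 151 and 185 CPM from 25.8, 5.54 and 14.9 CPM, and here KCl replicate 1 lay within the basal range.

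The small MAF proteins, which lack an activation domain, also belonged to the responding members. Maff (chr15:79346621-79359078) had 5.36, 0.894 and 1.11 CPM in basal and 7.40, 19.6 and 18.4 CPM in KCl samples, a log2 fold change of 2.66 ± 0.45 (adjusted p = 0.000416), and Mafk rose by 1.62 ± 0.29. Fosl2 rose by 1.30 ± 0.31, with groups that overlapped and a call that was lost without basal replicate 2, KCl replicate 2 or KCl replicate 3 (log2 fold change from 1.03 to 1.67 over the 6 fits with 1 library left out). The 3 tested members without a call were Fosl1 with a log2 fold change of 2.02, Mafg with -0.14 and Jdp2 with -0.48.

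Of the other rapid transcription factors 26 of 30 passed the filter, 11 rose and 2 fell, with a median log2 fold change of 0.85. The upstream 250 bases of Fos and of the 3 largest rises in this list are shown here because all carry the 5-letter core of the CRE, the site bound by CREB (TGACG or its complement CGTCA, in capitals). That short core is common: 31.8% of the promoters of tested genes and 43.7% of those of genes that rose hold it. The sequences come from RefSeq (GRCm38.p6) and end at the base before the annotated start. For Npas4 this is the 1 start in the promoter table, and the gene's annotated span given below extends beyond it upstream.
Fos, chr12:85473640-85473889 (+): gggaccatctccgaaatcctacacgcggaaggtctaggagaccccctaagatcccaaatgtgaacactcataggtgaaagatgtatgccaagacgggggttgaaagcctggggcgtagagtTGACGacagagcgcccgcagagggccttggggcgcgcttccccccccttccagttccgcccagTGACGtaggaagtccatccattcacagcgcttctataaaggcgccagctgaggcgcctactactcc
Npas4, chr19:4989972-4990221 (-): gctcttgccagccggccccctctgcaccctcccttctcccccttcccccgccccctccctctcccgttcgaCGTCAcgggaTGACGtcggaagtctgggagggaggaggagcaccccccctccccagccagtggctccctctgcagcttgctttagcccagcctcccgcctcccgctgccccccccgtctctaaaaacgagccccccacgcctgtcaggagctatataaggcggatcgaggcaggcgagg
Nr4a2, chr2:57124004-57124253 (-): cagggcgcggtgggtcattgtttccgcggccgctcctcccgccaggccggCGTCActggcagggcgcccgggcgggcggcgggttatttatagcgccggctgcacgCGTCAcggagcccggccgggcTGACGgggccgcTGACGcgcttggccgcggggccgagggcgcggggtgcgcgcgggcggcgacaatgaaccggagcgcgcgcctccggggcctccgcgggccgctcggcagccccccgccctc
Klf4, chr4:55532476-55532725 (-): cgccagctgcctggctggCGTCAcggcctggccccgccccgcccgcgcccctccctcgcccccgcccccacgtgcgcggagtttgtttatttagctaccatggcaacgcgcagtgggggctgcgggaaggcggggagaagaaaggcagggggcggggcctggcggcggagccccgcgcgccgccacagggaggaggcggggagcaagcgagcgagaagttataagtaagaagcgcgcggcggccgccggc

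Klf4 (chr4:55527137-55532475), a zinc finger factor, had only 2.07, 0.894 and 0.221 CPM in basal samples and 12.3, 23.8 and 16.3 CPM after KCl. Its log2 fold change was 4.12 ± 0.54 (adjusted p = 1.67e-05), and the highest basal sample was replicate 1. Npas4 (chr19:4984353-5003439), a neuron-specific factor that responds selectively to calcium entry, was far more abundant and went from 106, 63.3 and 177 CPM to 400.2, 1045 and 983 CPM, a change of 2.80 ± 0.31 (adjusted p = 1.41e-06). KCl replicate 1 had the lowest Npas4 level of the KCl samples and still lay above every basal sample.

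The orphan nuclear receptors of the NR4A family rose together. Nr4a2 (chr2:57106830-57124003) had 7.26, 6.26 and 8.41 CPM in basal and 34.3, 62.2 and 86.1 CPM in KCl samples, and changed by 3.03 ± 0.30 (adjusted p = 9.96e-08). The locus overlaps the annotated RNA LOC105244150, and reads of both cannot be told apart without strand. Nr4a1 rose by 1.63 ± 0.26 and Nr4a3 by 1.60 ± 0.20 on the log2 scale, both with groups that did not overlap. Ier2 (1.54 ± 0.26), Ier3 (2.83-fold in mean CPM) and Klf6 (0.90 ± 0.16) rose without overlap of the groups. Nfil3, a bZIP repressor, rose by 1.96 ± 0.33 although KCl replicate 1, at 25.3 CPM, lay within the basal range.

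No gene of the EGR family rose past the test. Egr1, the family member used most widely as an activity marker, had a log2 fold change of 0.50 ± 0.22 with an adjusted p of 0.172, from 51.2, 48.6 and 55.7 CPM to 75.5, 75.5 and 69.4 CPM. Egr3 fell by 1.16, from 23.2, 46.3 and 46.3 CPM to 26.5, 10.99 and 14.2 CPM, and Nab2, a co-repressor that binds EGR proteins, fell by 0.93. Both falls were lost without basal replicate 2, basal replicate 3, KCl replicate 2 or KCl replicate 3 (log2 fold changes from -1.63 to -0.91 for Egr3 and from -1.07 to -0.71 for Nab2).

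Activity-regulated effectors, a list of synaptic, secreted and signalling products induced by activity, rose in 17 of 41 tested cases and fell in none. Their median log2 fold change was 0.83, and whether the factors above control them was not tested. The count was 19 without basal replicate 1, 22 without KCl replicate 1 and 12 without each of the other 4 libraries. Secreted and growth factor genes were among the rises. Vegfa, the vascular growth factor, had 113, 111 and 163 CPM in basal and 327, 286 and 273 CPM in KCl samples (1.19 ± 0.16, adjusted p = 3.12e-05), and was as high in KCl replicate 1 as in the others. The matricellular gene Ccn1 rose by 2.47 ± 0.39, and Cartpt, which encodes the CART neuropeptide, by 1.83 ± 0.38.

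Bdnf, the neurotrophin that is the textbook target of calcium and CREB, was higher in only 2 of the 3 KCl samples. Its levels were 290.5, 193 and 216 CPM in basal and 203, 421 and 579.8 CPM in KCl samples, so KCl replicate 1 lay within the basal range. The log2 fold change of 0.78 ± 0.22 (adjusted p = 0.0343) was lost without basal replicate 2, basal replicate 3, KCl replicate 2 or KCl replicate 3 and ranged from 0.43 to 1.10 over the fits with 1 library left out. The granin Scg2 showed the same pattern at higher levels, with 823, 589.8 and 557 CPM in basal and 781, 1491 and 1422 CPM in KCl samples. The DNA repair and demethylation genes Gadd45g and Gadd45b rose by 1.99 ± 0.34 and 1.83 ± 0.40 without overlap. Arc, whose product acts at the postsynaptic density, had 75.7, 80.7 and 98.8 CPM in basal and 178, 126 and 162 CPM in KCl samples. Its groups did not overlap, but the log2 fold change of 0.87 ± 0.32 did not pass the test (adjusted p = 0.112), whereas it was called after the same treatment in the stimuli experiment (1.56 ± 0.20, adjusted p = 2.41e-06). Homer1 had -0.58 (adjusted p = 0.0509).

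Feedback regulators of the kinase pathways were mostly without a call. Of 16 tested MAPK feedback inhibitors 1 rose, the phosphatase gene Dusp1, from 25.9, 24.1 and 30.6 CPM to 40.5, 138 and 118 CPM (1.87 ± 0.28), and 3 were called higher without KCl replicate 1. Of 15 tested CREB pathway genes edgeR's quasi-likelihood test called 0, the likelihood ratio test 0 and DESeq2 0, with 4 higher and 1 lower at an unadjusted p under 0.05 and 2 called higher without KCl replicate 1. The largest value in that list was 2.10 ± 0.76 for Sik1, a kinase that restrains the CREB coactivators (adjusted p = 0.101).

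The largest of the 12 named rises was a heat shock gene. Hspa1a (chr17:34969359-34972156) and Hspa1b (chr17:34956429-34959238) encode the same stress-inducible HSP70 chaperone from adjacent, near-identical genes, so the division of reads between them is uncertain. Hspa1a had 2.59, 2.68 and 2.99 CPM in basal and 36.2, 72.5 and 49.3 CPM in KCl samples, a log2 fold change of 4.23 ± 0.39 (adjusted p = 2.63e-08). Hspa1b had 22.5, 28.1 and 29.1 CPM and 138, 230.3 and 198 CPM, a change of 2.82 ± 0.21 (adjusted p = 4.27e-10). In both, the lowest KCl sample was replicate 1 and still lay far above the highest basal sample. The upstream 250 bases of the pair from RefSeq (GRCm38.p6) are shown because 247 of 250 positions are identical, the site matching GAANNTTC, the paired unit of a heat shock element, included (capitals). GAANNTTC is held by 5.82% of the promoters of tested genes.
Hspa1a, chr17:34972157-34972406 (-): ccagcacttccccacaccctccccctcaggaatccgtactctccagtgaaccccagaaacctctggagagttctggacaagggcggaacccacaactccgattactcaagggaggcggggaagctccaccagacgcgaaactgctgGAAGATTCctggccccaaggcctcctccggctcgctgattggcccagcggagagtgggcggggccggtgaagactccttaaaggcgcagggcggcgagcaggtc
Hspa1b, chr17:34959239-34959488 (-): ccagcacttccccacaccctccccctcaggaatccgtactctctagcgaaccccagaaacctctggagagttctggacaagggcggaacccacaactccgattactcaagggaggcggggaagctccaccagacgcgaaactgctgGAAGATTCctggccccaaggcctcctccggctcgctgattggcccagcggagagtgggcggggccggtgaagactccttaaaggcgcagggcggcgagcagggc

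The other chaperones moved little. Of 27 tested chaperone and heat shock genes 5 rose and none fell, and the list median of 0.10 lay close to that of all genes. The 3 beside the HSP70 pair were Hspb8 (1.47 ± 0.34), Dnaja4 (0.83 ± 0.20) and Dnajb4 (0.77 ± 0.22), and the count was 3 without basal replicate 3, KCl replicate 2 or KCl replicate 3. Hsp90aa1, the inducible HSP90, had 0.68 ± 0.23 (adjusted p = 0.083), Dnajb1 0.20 ± 0.19 (adjusted p = 0.615) and Hsf1, which encodes the heat shock factor itself, 0.10 ± 0.17.

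The integrated stress response, in which phosphorylated eIF2α favours translation of ATF4, was represented more broadly. Of 33 tested ATF4-linked and amino acid genes 14 rose and none fell (10 to 16 with 1 library left out), and the list median was 0.53. Ppp1r15a (GADD34), the phosphatase subunit that reverses eIF2α phosphorylation, had 70.7, 32.5 and 49.7 CPM in basal and 222, 278 and 294 CPM in KCl samples, a change of 2.37 ± 0.20 (adjusted p = 6.19e-09), with all KCl samples far above all basal ones. Its upstream 250 bases (RefSeq, GRCm38.p6) hold 1 full 8-letter CRE, TGACGTCA, in capitals, which 3.36% of the promoters of tested genes hold.
Ppp1r15a, chr7:45526269-45526518 (-): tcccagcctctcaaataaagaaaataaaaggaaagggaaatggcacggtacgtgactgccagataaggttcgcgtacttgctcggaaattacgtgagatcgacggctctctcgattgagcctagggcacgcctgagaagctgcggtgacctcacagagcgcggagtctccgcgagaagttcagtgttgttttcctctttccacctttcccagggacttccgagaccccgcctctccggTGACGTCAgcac

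Atf4 itself rose from 304, 328 and 386 CPM to 441, 582 and 638 CPM (0.71 ± 0.14), and Ddit3, which encodes CHOP, from 32.5, 15.6 and 18.6 CPM to 35.6, 71.2 and 65.6 CPM (1.37 ± 0.30). The pseudokinase gene Trib3 rose by 2.51 ± 0.52, and Sesn2 by 2.54 ± 0.58 at levels under 8 CPM. Sesn2 lost its call without basal replicate 2, basal replicate 3 or KCl replicate 3, with log2 fold changes from 2.17 to 2.99. Amino acid carriers rose as well. Slc3a2, the shared heavy chain of several carriers, went from 522, 412 and 530.1 CPM to 739.9, 934 and 1184 CPM (0.96 ± 0.16), and its light chain partner Slc7a5 rose by 1.07 ± 0.20 and the cationic carrier Slc7a3 by 1.07 ± 0.23. The aminoacyl-tRNA synthetase genes in the list were not called, with log2 fold changes of 0.50 for Sars, 0.41 for Cars and 0.23 for Wars. Of 30 genes of ER folding and ER-associated degradation 2 rose, Hspa5 (BiP) from 250.2, 206 and 181 CPM to 333, 609 and 562 CPM (1.24 ± 0.21) and Herpud1 by 0.83 ± 0.25. Without KCl replicate 1 that count was 6, and Herpud1 lost its call without basal replicate 1, basal replicate 2, KCl replicate 2 or KCl replicate 3 (from 0.66 to 1.10).

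Genes of glycolysis and the hypoxia response formed the other large group of rises, with 10 of 35 tested higher, none lower and a median of 0.47 (8 to 12 higher with 1 library left out). Adm (chr7:110627657-110629820), the vasodilator peptide adrenomedullin, had 26.1, 4.47 and 6.64 CPM in basal and 90.9, 93.5 and 136 CPM in KCl samples, a change of 3.13 ± 0.41 (adjusted p = 1.63e-05). Basal replicate 1 was the highest basal sample by a wide margin and still lay below every KCl sample. The locus overlaps the annotated RNA Gm28863. Genes of glucose uptake and its first steps rose: the transporters Slc2a1 (1.23 ± 0.22) and Slc2a3 (0.99 ± 0.18), hexokinase Hk2 (5.88, 3.22 and 4.65 CPM against 17.5, 23.7 and 28.6 CPM, 2.33 ± 0.38) and Pfkfb3, which makes the activator of phosphofructokinase (1.59 ± 0.25).

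Enzymes further down glycolysis had smaller values and no call, with log2 fold changes of 0.93 for Pgam1, 0.51 for Ldha, 0.40 for Pgk1 and 0.24 for Pkm. Car9, a carbonic anhydrase of the cell surface, rose by 2.32 ± 0.46 and Ndrg1 by 1.88 ± 0.26. Car6 (chr4:150187015-150201135), a secreted carbonic anhydrase named by size of change, had 7.95, 0.358 and 0.664 CPM in basal and 12.1, 28.5 and 25.96 CPM in KCl samples (2.93 ± 0.63, adjusted p = 0.00469). Its basal level rested on replicate 1, and without that sample the log2 fold change was 5.28. Mgarp (chr3:51388412-51396547), a mitochondrial protein gene, went from 3.80, 0.537 and 4.87 CPM to 10.7, 21.6 and 25.5 CPM (2.59 ± 0.49, adjusted p = 0.00182).

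Krt6a (chr15:101689928-101694305), an epithelial keratin gene that overlaps Gm49428, completed the 12 rises named by rule. It had 3.29, 2.50 and 2.21 CPM in basal and 10.1, 10.8 and 34.2 CPM in KCl samples (2.77 ± 0.55, adjusted p = 0.00198), with KCl replicate 3 well above the other KCl samples. Among the remaining lists with rises, 3 of 17 tested clock genes were higher: Ciart, a repressor of the CLOCK complex (40.5, 21.6 and 55.4 CPM against 128, 142 and 142 CPM, 1.80 ± 0.40), Per1 (1.11 ± 0.28) and Cry1 (0.77 ± 0.22). That count fell to 1 or fewer without basal replicate 2, basal replicate 3, KCl replicate 2 or KCl replicate 3. Of 29 apoptosis and p53 target genes 4 rose, Cdkn1a (1.18 ± 0.26), Bid (1.05 ± 0.32), Plk2 (0.85 ± 0.19) and Ccng1 (0.72 ± 0.19). That count was 6 without either replicate 1, 1 without basal replicate 2 or KCl replicate 3, and 2 without basal replicate 3 or KCl replicate 2.

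**Figure D3:**
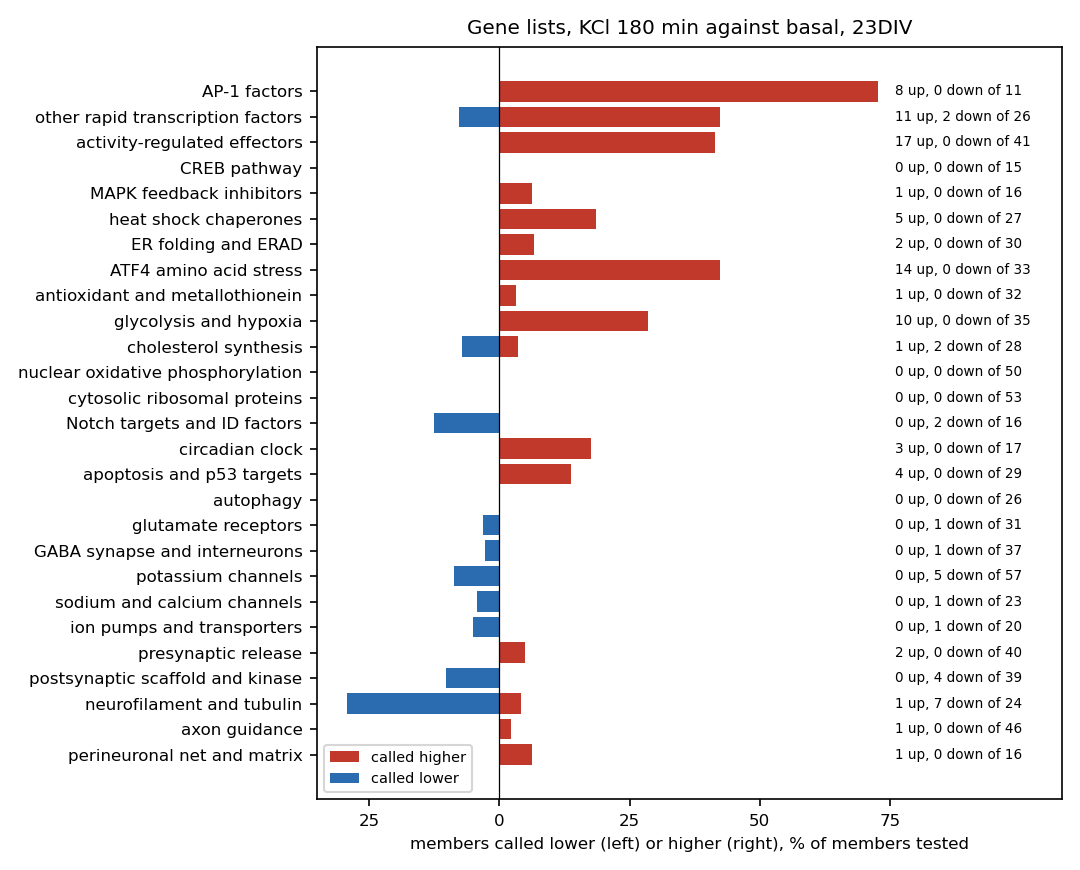
Share of the tested members of each gene list (%, x axis) that were called higher (bars to the right) or lower (bars to the left) after 180 min of KCl, with the counts at the right. AP-1 factors have the longest bar to the right, 8 of 11, followed by 14 of 33 ATF4-linked genes and 11 of 26 other rapid transcription factors, and the neurofilament and tubulin list has the longest bar to the left, 7 of 24.

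The largest named fall was Hes5 (chr4:154960626-154962372), a repressor that is a direct target of Notch signalling and is found mainly in progenitors and glia. It had 13.1, 15.9 and 26.3 CPM in basal and 5.26, 2.24 and 0.472 CPM in KCl samples, a change of -2.76 ± 0.49 (adjusted p = 0.000788), and the KCl samples differed widely among themselves. Of 16 tested Notch targets and ID factors, the list to which it belongs, 2 were called lower and none higher, and Hes1 (-0.17 ± 0.45) and Hey1 (0.04 ± 0.22) had no call.

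Of 13 tested markers of the oligodendrocyte lineage 2 were called lower and none higher, with a median log2 fold change of -0.26. Olig1 (chr16:91269769-91271939), the lineage factor of oligodendrocyte precursors, had 579.7, 551 and 581 CPM in basal and 269, 180.0 and 223 CPM in KCl samples, a change of -1.35 ± 0.19 (adjusted p = 4.88e-05), with basal samples close to each other. Pdgfra, the receptor of precursor cells, fell by 1.05, and lost its call without basal replicate 2, basal replicate 3, KCl replicate 2 or KCl replicate 3 (from -1.32 to -0.82). The other 11 tested lineage markers had no call, and their values had both signs, with -1.24 for Sox10 and -0.66 for Olig2 but 0.98 for the myelin gene Mbp and 0.66 for Cldn11. The summed level of the lineage list, given above, was also lower after KCl. Within the KCl samples it did not follow Olig1: replicate 1 had the lowest sum, 1399 CPM, and the highest Olig1 level. Of 23 tested astrocyte markers 1 was called lower, Fabp7, a lipid carrier of radial glia and astrocytes (-1.14 ± 0.25), with a list median of -0.09 and 6 called lower without KCl replicate 1.

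The replication and mitosis genes named by rule were Ccna2, Pclaf and Ccnb2. Ccna2 (chr3:36564865-36573038, overlapping Exosc9), cyclin A2, had 20.7, 11.3 and 9.63 CPM in basal and 5.45, 3.54 and 1.89 CPM in KCl samples (-1.90 ± 0.43, adjusted p = 0.00659), and lost its call without KCl replicate 3, where its log2 fold change was -1.60. Pclaf (chr9:65890323-65903551, overlapping Trip4), a PCNA-binding protein gene, changed by -1.67 ± 0.45 and lost its call without basal replicate 1 or KCl replicate 2, with log2 fold changes from -2.04 to -1.04. Ccnb2 (chr9:70407689-70421554) changed by -1.34 ± 0.41 with an adjusted p of 0.0481, and its call was lost in each of the 6 fits with 1 library left out (from -1.55 to -1.06). In all 3 the basal sample with the highest level was replicate 1. Dividing progenitor markers summed to 153 to 211 CPM in basal and to 93.2 to 127 CPM in KCl samples, again with no overlap, and 1 of 7 tested, Top2a, was called lower (-1.15 ± 0.33). That call was lost without basal replicate 1, basal replicate 2, KCl replicate 2 or KCl replicate 3 (from -1.39 to -0.84). The part that the share or state of non-neuronal cells had in these falls was not tested.

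Among RNA genes, Mir124a-1hg (chr14:64588115-64593961), the host transcript of the neuronal microRNA miR-124, had 34.2, 54.9 and 62.2 CPM in basal and 10.3, 15.8 and 16.5 CPM in KCl samples (-1.83 ± 0.28, adjusted p = 0.000159), with groups far apart. The counts are of the host transcript and not of the mature microRNA. Kcnmb4os2 (chr10:116473163-116474987, overlapping Kcnmb4) changed by -1.67 ± 0.43 with basal replicate 3 at 24.6 CPM. Its call was lost without basal replicate 3 or KCl replicate 2, with log2 fold changes from -2.10 to -0.97. Yy2 (chrX:157566119-157568985), a retrotransposed relative of the factor YY1 within Mbtps2, had 78.3, 72.97 and 54.1 CPM and 18.3, 22.5 and 17.2 CPM (-1.81 ± 0.33, adjusted p = 0.000965), and reads of Mbtps2 may be counted with it.

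Inka2 (chr3:105704599-105720842), an inhibitor of the kinase PAK4, had 55.2, 64.7 and 82.2 CPM in basal and 42.6, 13.2 and 12.04 CPM in KCl samples (-1.57 ± 0.31, adjusted p = 0.00192). KCl replicate 1 lay near the basal range, and without it the log2 fold change was -2.42. Nmral1 (chr16:4711317-4719356) changed by -1.39 ± 0.42 (adjusted p = 0.0424) and Rasip1 (chr7:45627537-45639092, overlapping A030001D20Rik) by -1.35 ± 0.41 (adjusted p = 0.046). Both had low levels, at most 10.7 CPM for Nmral1 and 5.36 CPM for Rasip1, and kept their calls only without basal replicate 2, with log2 fold changes from -1.59 to -1.16 for Nmral1 and from -1.59 to -0.97 for Rasip1.

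The few calls among genes of excitability were falls, where 1.91% of all tested genes were called lower. Of 57 tested potassium channel genes 5 fell and none rose, with a list median of -0.26. In the stimuli experiment that list had a median of 0.13 and 0 calls. At 7DIV it had a median of 0.02, with 2 called lower and 0 higher. Kcnk9 (chr15:72501873-72548614), the acid-sensitive leak channel TASK-3, had 22.6, 25.04 and 15.4 CPM in basal and 8.18, 8.94 and 7.32 CPM in KCl samples (-1.35 ± 0.32, adjusted p = 0.00981), and lost its call without basal replicate 2 or KCl replicate 3 (from -1.54 to -1.21). The others were Kcnip2, an auxiliary subunit of A-type channels (-1.11 ± 0.28), the leak channel Kcnk10 (-1.09 ± 0.31), the silent subunit Kcns2 (-0.91 ± 0.22) and the auxiliary subunit Kcnab2 (-0.74 ± 0.22). The number called lower was 8 without KCl replicate 1, 13 without both replicates 1, 1 without KCl replicate 2 or 3, 2 without basal replicate 2 and 3 without basal replicate 3. Of 23 sodium and calcium channel genes 1 fell, Cacnb3 (-0.83 ± 0.18), and of 20 pumps and ion transporters 1 fell, the plasma membrane calcium pump Atp2b2 (107, 165 and 166 CPM against 102, 54.4 and 67.3 CPM, -0.97 ± 0.17). In the list of pumps 3 were called lower without KCl replicate 1, 2 without basal replicate 1 and 4 without both.

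Postsynaptic scaffold and kinase genes fell in 4 of 39 tested cases, with a list median of -0.27. Camkk2, the kinase that activates CaMKI and CaMKIV, had 212, 357 and 365 CPM in basal and 172, 131 and 159 CPM in KCl samples (-1.01 ± 0.17, adjusted p = 0.000415). Its substrate kinase Camk4 changed by -0.93 ± 0.19 and the scaffold gene Dlgap3 by -1.01 ± 0.18, all 3 without overlap of the groups. Baiap2 changed by -0.67 ± 0.17 and lost its call without basal replicate 2, basal replicate 3, KCl replicate 2 or KCl replicate 3 (from -0.93 to -0.53). The number called lower in the list was 10 without basal replicate 1, 8 without KCl replicate 1 and 3 without each of the other libraries.

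The cytoskeletal list had the most members called lower of the neuronal lists: of 24 tested, 7 fell and 1 rose, with a median of -0.33. Tubulins made up 5 of the falls. Tuba4a went from 340.3, 362 and 388 CPM to 206, 159 and 226 CPM (-0.89 ± 0.15, adjusted p = 0.000613), and Tubb3, the neuronal β-tubulin, from 513, 424 and 523 CPM to 295, 255 and 339 CPM (-0.72 ± 0.14). Tubb4a (-0.70 ± 0.13), Tubb5 (-0.71 ± 0.13) and Tuba1b (-0.68 ± 0.13) fell to a like extent, as did the microtubule-associated Map1a (-0.66 ± 0.12) and the neurofilament heavy chain Nefh (-0.75 ± 0.21). The member that rose was Stmn4, a tubulin-binding protein gene (0.74 ± 0.13). The number called lower was 4 without KCl replicate 2 and 5 to 7 without each other library. Nefl, Nefm and Map2 had log2 fold changes of 0.32, 0.24 and 0.01 with no call, and tubulin genes are near-identical in parts, so that counts may be shared between them.

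Other neuronal lists had few calls. Of 31 glutamate receptor genes 1 fell, the NMDA receptor subunit Grin3a (-0.77 ± 0.22), of 37 genes of GABA synapses and interneurons 1 fell, Calb1 (-0.68 ± 0.16), and of 40 genes of presynaptic release 2 rose, Unc13b (1.11 ± 0.27) and Syt4 (0.79 ± 0.19). Grin3a and Syt4 lost their calls without basal replicate 2, basal replicate 3, KCl replicate 2 or KCl replicate 3, and Calb1 and Unc13b without basal replicate 3, KCl replicate 2 or KCl replicate 3. The log2 fold changes then lay between -1.16 and -0.59, 0.64 and 1.05, -0.90 and -0.57, and 0.94 and 1.34 in the order Grin3a, Syt4, Calb1 and Unc13b. Without either replicate 1 the GABA list had 4 called lower and the glutamate receptor list 2, and without both replicates 1 they had 6 and 2. Of 46 axon guidance genes 1 rose (Sema4b, 0.80 ± 0.25) and of 16 genes of the perineuronal net and matrix 1 rose, the protease Adamts1 (9.68, 8.41 and 7.97 CPM against 12.7, 33.2 and 38.7 CPM, 1.69 ± 0.32). Sema4b lost its call without basal replicate 1, basal replicate 2, KCl replicate 1, KCl replicate 2 or KCl replicate 3 (from 0.64 to 1.03).

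Housekeeping lists had few or no calls. Of 50 nuclear genes of oxidative phosphorylation edgeR's quasi-likelihood test called 0, the likelihood ratio test 0 and DESeq2 0, with 15 lower and 0 higher at an unadjusted p under 0.05 and a median of -0.21. Of 53 cytosolic ribosomal protein genes the same 3 tests called 0, 0 and 0, with 5 higher and 3 lower at an unadjusted p under 0.05 and a median of 0.00. Of 26 autophagy genes they called 0, 0 and 1, with 4 higher and 0 lower at an unadjusted p under 0.05, a median of 0.08 and sums of 6098 to 6590 CPM in basal and 6679 to 7118 CPM in KCl samples. Of 28 tested genes of cholesterol synthesis 2 were called lower, among them Mvk (-0.94 ± 0.24), and 1 higher, Insig2 (0.71 ± 0.17). Of 32 antioxidant and metallothionein genes 1 rose, Hmox1 (0.92 ± 0.28, adjusted p = 0.0487), which lost its call without basal replicate 1, basal replicate 2, basal replicate 3, KCl replicate 2 or KCl replicate 3 (from 0.53 to 1.16). The list had 4 called higher without KCl replicate 1 and 5 without both replicates 1.

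To see which of these levels belonged to the late time point, KCl 180 min was compared directly with KCl 15 min at the same age, when 6.23% of tested genes were called against basal. Of 11746 genes 76 were higher and 30 lower at 180 min, 0.902% of those tested, and the total was 25 without KCl 15 min replicate 1 and 259 without KCl 15 min replicate 3. Klf4 was at 1.45, 1.43 and 1.25 CPM after 15 min and differed by 3.63 ± 0.51 between the time points, and Nr4a2 was at 8.72, 16.9 and 4.98 CPM and differed by 2.63 ± 0.29. Hspa1b, at 26.9, 44.6 and 23.5 CPM after 15 min, differed by 2.59 ± 0.21 (adjusted p = 2.87e-09), and Hspa1a by 2.74 ± 0.35. Against basal, the 15 min values of Klf4 (0.49 ± 0.63), Nr4a2 (0.40 ± 0.32) and Hspa1b (0.23 ± 0.21) did not pass the test, and that of Hspa1a did (1.49 ± 0.40). At 15 min 14 of 33 ATF4-linked, 13 of 35 glycolysis and hypoxia and 19 of 41 effector genes were already called higher than basal. Called lower at 15 min were 12 of 39 postsynaptic and 7 of 57 potassium channel genes. Between the time points these lists had 1, 0, 2, 0 and 0 members higher at 180 min, and 1 effector lower. AP-1 factors had 8 of 11 higher at 15 min and 3 higher between time points. Other rapid factors had 3 higher and 2 lower of 26, and 6 higher between time points.

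Fos and Npas4 were already above basal after 15 min, at 43.2, 42.9 and 26.5 CPM and 265, 311 and 165 CPM, and rose further by 2.11 ± 0.27 and 1.71 ± 0.30. Krt6a went the other way: it was at 61.2, 193 and 26.3 CPM after 15 min and lower at 180 min by -2.35 ± 0.46 (adjusted p = 0.00813). Adm, Car6, Maff and Mgarp were at intermediate or similar levels at 15 min, and their differences between time points of 1.29 ± 0.37, 0.68 ± 0.56, 0.59 ± 0.39 and 0.22 ± 0.44 did not pass the test. Among the falls, Rrm2, a ribonucleotide reductase subunit, was at 179.7, 124 and 83.3 CPM after 15 min against 66.4, 21.4 and 52.9 CPM after 180 min (-1.47 ± 0.34, adjusted p = 0.0335), and Ddit4l at 26.96, 50.3 and 33.6 CPM against 16.4, 15.8 and 7.79 CPM (-1.45 ± 0.33). Noc3l was lower by -1.50 ± 0.38, at 39.6, 50.99 and 34.5 CPM after 15 min. Ttr, a choroid plexus gene, was lower by -7.06 ± 1.21, but its 15 min samples held 11.6, 5.72 and 132 CPM, so the size of this difference depended on 1 library. All its 15 min samples lay above all its 180 min samples, as the naming rule required.

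**Figure D4:**
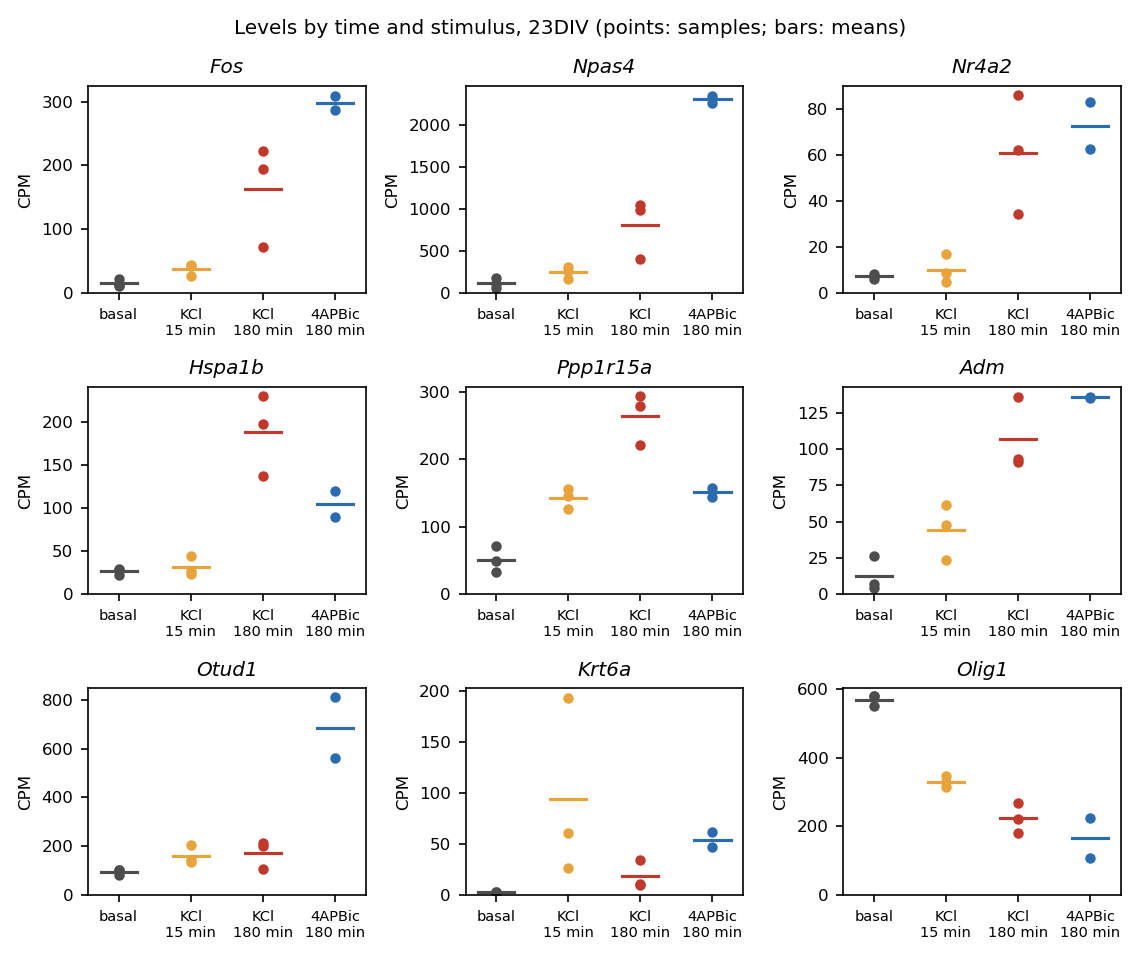
CPM (linear axis from 0) of 9 genes in basal, KCl 15 min, KCl 180 min and 4APBic 180 min samples at 23DIV, 1 point a sample and a bar for the group mean. Nr4a2 and Hspa1b stay near basal at 15 min, the mean of Krt6a is highest at 15 min, and Npas4 and Otud1 are highest after 4APBic.

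Direct depolarization was compared with synaptic network activity at the same duration through 4APBic, which relieves inhibition and prolongs action potentials. Between KCl and 4APBic at 180 min 29 genes were higher after KCl and 33 lower, 0.528% of 11746. The total was 6 without 4APBic replicate 2, 16 without KCl replicate 1 and 100 without KCl replicate 2, and a fit on the 5 compared samples alone called 0 of 10494 genes by edgeR's quasi-likelihood test, with 1464 at an unadjusted p under 0.05. Npas4 reached 2259 and 2348 CPM after 4APBic against 400.2, 1045 and 983 CPM after KCl, a difference of -1.51 ± 0.32 (adjusted p = 0.0222). For Fos the 4APBic samples held 309.7 and 287 CPM, and the difference of -0.87 ± 0.28 did not pass the test (adjusted p = 0.157).

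Genes much higher after 4APBic were Pim1, a kinase gene (95.2 and 69.7 CPM against 7.40, 17.5 and 26.7 CPM, -2.28 ± 0.51), Gm13889 (412 and 239.8 CPM against 58.98, 85.3 and 95.1 CPM, -2.03 ± 0.25) and the deubiquitinase gene Otud1 (812 and 559 CPM against 107, 201 and 214 CPM, -1.98 ± 0.27). After KCl these genes stood at log2 fold changes of 0.25, -0.02 and 0.86 from basal. Rasip1 was also lower after KCl than after 4APBic (-2.15 ± 0.43). The 4 named genes that were higher after KCl had all fallen from basal after 4APBic, by between 1.03 and 2.13 on the log2 scale, in a comparison that called 14.2% of tested genes. Ncoa5 was at 7.92 and 9.22 CPM after 4APBic and 26.1, 21.8 and 21.2 CPM after KCl (1.43 ± 0.24), the clock activator Arntl at 11.8 and 10.9 CPM and 26.5, 32.98 and 28.1 CPM (1.36 ± 0.26), Hdac7 at 4.61 and 4.61 CPM and 18.1, 10.8 and 11.1 CPM (1.53 ± 0.33) and Gask1b at 3.13 and 3.26 CPM and 9.93, 12.7 and 13.7 CPM (1.91 ± 0.41). For Hspa1b the difference of 0.84 ± 0.22 had an adjusted p of 0.0667.

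Whether mature neurons responded differently from young ones was tested as the difference between the KCl 180 min responses at 23DIV and 7DIV. It passed an adjusted p of 0.05 for 91 genes, 0.775% of those tested, 51 with a more positive and 40 with a more negative response at 23DIV. The number was 288 without KCl replicate 1, 196 without basal replicate 1 and 36 without KCl replicate 2 of 23DIV. Hspa1b rose at both ages, by 2.82 ± 0.21 at 23DIV and 1.10 ± 0.22 at 7DIV, a difference of 1.72 ± 0.30 (adjusted p = 0.00574), and Ppp1r15a by 2.37 ± 0.20 and 1.01 ± 0.20, a difference of 1.36 ± 0.28. For most immediate early genes the difference did not pass, with 1.43 ± 0.39 for Fos (adjusted p = 0.0781), 0.86 ± 0.42 for Npas4 and -0.28 ± 0.31 for Junb.

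Genes with a more positive response at 23DIV came from several lists. Chac1 had 1.12 ± 0.24 at 23DIV and -0.85 ± 0.25 at 7DIV, Ndrg1 1.88 ± 0.26 and 0.14 ± 0.26, and Slc2a1 1.23 ± 0.22 and -0.47 ± 0.34, with differences of 1.97 ± 0.35, 1.74 ± 0.36 and 1.69 ± 0.40. Klf6 (1.33 ± 0.22), Rgs2 (1.59 ± 0.32), Eif4ebp1 (1.34 ± 0.33) and Adamts1 (2.00 ± 0.46) were in the same class. Over the lists, 3 of 33 ATF4-linked genes, 2 of 35 glycolysis and hypoxia genes and 2 of 41 activity-regulated effectors passed with a more positive response, where 0.775% of all genes passed in either direction. A further 1 of the effectors passed with a more negative response. Of the 26 other rapid transcription factors, 1 passed with a more positive and 2 with a more negative response. The more negative class held Olig1, with -1.35 ± 0.19 at 23DIV and 0.40 ± 0.20 at 7DIV (-1.75 ± 0.27, adjusted p = 0.00345), Camkk2 (-1.07 ± 0.24) and Camk4 (-1.19 ± 0.27).

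The 7DIV samples share no library with the 23DIV comparison, so the direction of its genes could be read there. KCl for 180 min at 7DIV gave 233 calls, 1.98% of genes tested. Of the 350 genes higher at 23DIV 235 (67.1%) had a positive log2 fold change at 7DIV, against 49.98% of all genes, and 45 were called higher, which is 12.9% of the 23DIV list and 36.6% of the 123 genes called higher at 7DIV. Their median log2 fold change was 0.21 at 7DIV and 1.12 at 23DIV, where they had been selected by size. Of the 224 falls 133 (59.4%) were negative at 7DIV, and 10 were called lower, 4.46% of the 23DIV list and 9.09% of the 110 genes called lower at 7DIV. A further 2 of the rises and 1 of the falls were called in the opposite direction.

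The stimuli experiment repeated basal and KCl 180 min at 21DIV in separate libraries of lower depth. There 92 of 12027 genes were called, 0.765%, 61 higher and 31 lower. Of the 350 rises 341 were tested, 232 (68.0%) had a positive log2 fold change against 48.6% of all genes, and 30 were called higher, 8.57% of the one list and 49.2% of the other. Of the 224 falls 218 were tested, 139 (63.8%) were negative against 51.3% of all genes, and 3 were called lower, 1.34% of the one list and 9.68% of the other. The median there was 0.19 for the rises and -0.11 for the falls, which is no test of a smaller response since the genes were selected by size in the maturation experiment, and 1 rise was called in the opposite direction.

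The shared rises included many immediate early genes. Levels of the experiments were normalised separately. Fos went from 37.5, 48.01 and 51.2 CPM to 115 and 122 CPM (1.39 ± 0.21) and so had a higher basal level and a smaller change than in the maturation experiment, and Npas4 from 81.4, 67.4 and 58 CPM to 171 and 165 CPM (1.28 ± 0.16). Klf4 (2.60 ± 0.40), Nr4a2 (2.42 ± 0.30), Fosb (2.28 ± 0.24), Junb (1.64 ± 0.24), Hspa1b (1.65 ± 0.22) and Ppp1r15a (1.03 ± 0.20) were called in both. Gm41127, an RNA gene overlapping Msmb, rose from 4.298, 5.21 and 6.06 CPM to 36.3 and 47.6 CPM there (3.03 ± 0.32), and in the maturation experiment by 2.50 ± 0.76, a call lost without basal replicate 2, basal replicate 3, KCl replicate 2 or KCl replicate 3 (from 1.89 to 5.57). The 3 falls called in both were Hes5 (22.6, 20.1 and 24.6 CPM against 2.42 and 6.31 CPM, -2.26 ± 0.34), Mir124a-1hg (-1.65 ± 0.32) and the long non-coding RNA Miat (log2 fold changes of -0.73 and -1.03 ± 0.18).

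Medians of several lists differed between the experiments. The ATF4-linked list had a median of 0.12 there against 0.53, glycolysis and hypoxia 0.11 against 0.47, and the neurofilament and tubulin list 0.20 against -0.33. The oligodendrocyte lineage list had a median of -0.27 there against -0.26, with 2 called lower in each experiment but different ones, Sox10 (-1.44) and Olig2 (-0.83) in the stimuli experiment. Olig1 was at 158, 214 and 105 CPM in basal and 145 and 137 CPM in KCl samples (-0.18 ± 0.21, adjusted p = 0.791), Car6 at 18.6, 16.4 and 28.8 CPM and 15.3 and 14.3 CPM (-0.52 ± 0.42) and Jun had 0.15 ± 0.15. The 3 basal and 2 KCl libraries there gave 23 to 60 calls when 1 of them was left out. Gm40346 (-2.61 ± 0.59) and Dancr (-2.08 ± 0.51) were called lower in that experiment, and they had 0.40 and -0.08 in the maturation experiment.

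**Figure D5:**
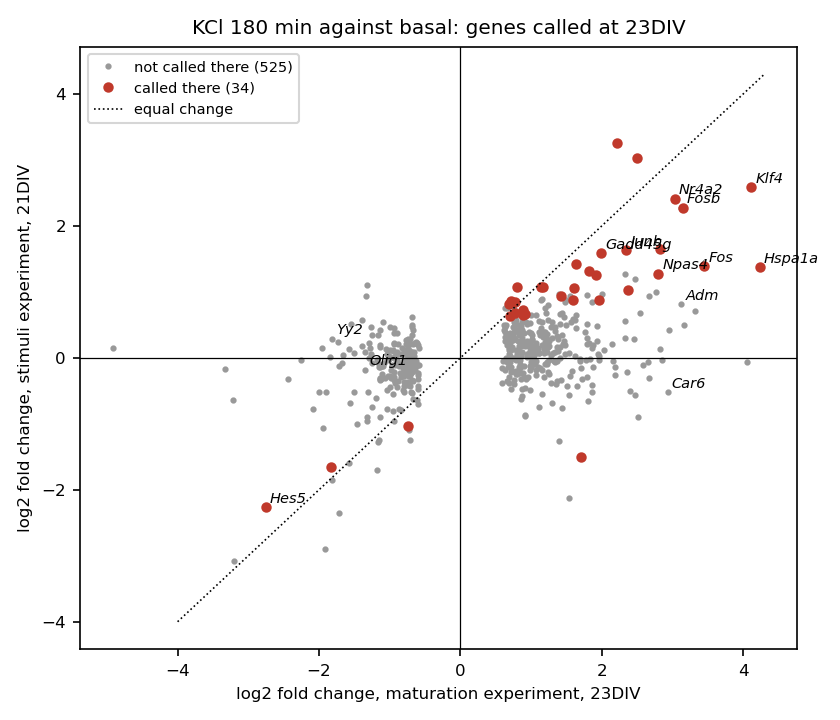
Log2 fold change after 180 min of KCl in the maturation experiment (x axis) against that in the stimuli experiment (y axis) for the 559 called genes tested in both. The 34 genes that were also called in the stimuli experiment are marked in red, a dotted line marks equal change, and most points lie closer to 0 on the y axis than on the x axis, on which they were selected.

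The promoter letters were counted over all called genes as a description. The table of upstream windows held 279 of the 350 genes that rose, 170 of the 224 that fell and 9379 of the 11746 tested. The 5-letter CRE core (TGACG on either strand, which also matches within the full CRE) was found in 43.7% of the promoters of genes that rose, 25.9% of those that fell, 31.8% of those tested and 19.8% of all 27025 promoters. The full CRE (TGACGTCA) was found in 5.02% and 2.35% against 3.36% of tested genes. The heat shock pair (GAANNTTC or TTCNNGAA) was found in 15.1% and 20% against 11.6%. The AP-1 letters (TGANTCA) were found in 4.66% and 5.88% against 5.04%, and the NRF2 core (TGACNNNGC) in 21.5% and 13.5% against 13.7%. For the EGR letters (GCGTGGGCG or GCGGGGGCG) the shares were 8.60% and 6.47% against 7.21%. For the CArG box (CCWWWWWWGG, W being A or T) they were 2.51% and 1.76% against 1.34%. The GC content of the windows was 60.9% for both groups and 60.6% for tested genes, and genes had 1.32, 1.40 and 1.30 annotated starts on average, each of which was searched.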

How the data were processed

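RNA of 55 mouse neuron samples was measured by CEL-Seq2, a 3′-end method with sample barcodes. The authors used STAR for alignment to mm10 and ESAT, a counter for 3′ ends, and what they deposited are raw counts for each RefSeq transcript. Collapse of molecular identifiers and the strand setting of the counting are not given in the sources used here, so counting error alone understates the error.

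Transcripts were matched to RefSeq symbols of GRCm38.p6, the same assembly as mm10 (78905 of 97700, and 78229 of 96722 in the stimuli experiment), and unmatched ones, with 18.5% and 19.2% of the counts, were left out. Transcripts sharing a 3′ end repeat counts (the sum was 3.13 times the largest), so the transcript with the most counts stood for its gene. Genes that exceeded 5 CPM in 2 or more samples entered a TMM normalization and the quasi-likelihood test of edgeR, with p-values adjusted by Benjamini-Hochberg, in 1 fit with a group for each condition over the 28 samples of the maturation experiment and another over the 27 of the stimuli experiment. Calls required adjusted p below 0.05 together with 1.5-fold or more, and the difference between ages required only the adjusted p. Standard errors come from the F statistic. DESeq2 and edgeR's likelihood ratio test were alternatives. R 4.3.3, edgeR 4.0.16, DESeq2 1.42.0 and Python 3.11.15 were used.

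Depth per sample ran from 1659722 to 14012872 counts on genes in the maturation experiment and from 1177500 to 3909487 in the stimuli experiment. Replicates of the compared groups differed by more than counting noise (5.03 to 14.4 in chi-square per degree of freedom), so none is the same library deposited again.

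The genes named are, for the main comparison, the 12 largest rises and 12 largest falls among called genes whose average log2 CPM reached 3 and whose groups did not overlap, 4 and 4 for each other comparison by the same rule (for the difference between ages without the condition on overlap), and list members, called ones first by size, up to 6 a list, with defining members. Further list members and the genes of the closing section were named after their values were seen. The members and lists were chosen with earlier results of these data known. Tests were checked on simulated data in which about 200 genes were changed. In the design of the main comparison 64.0% of 197 changed genes were recovered, with 3 false calls. Counts were drawn for each gene independently, so shifts shared by many genes of a library were not simulated. The smallest changes were set at the 1.5-fold threshold for calls. Results for a few list members are not reported here.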

Additional observations from a re-analysis of the deposited data

Results flagged for a closer look

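The response to 180 min of KCl differed between 23DIV and 7DIV for 91 genes by a test of the difference itself (edgeR's quasi-likelihood test, adjusted p under 0.05), and the 4 largest differences in each direction among genes of sufficient level are given here. Their part in any difference between the stages other than age was not tested, and stage and plating cannot be told apart.

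With a more positive response at 23DIV, Pdlim1, a cytoskeletal adaptor gene, changed by 2.19 ± 0.38 at 23DIV and -0.66 ± 0.44 at 7DIV, a difference of 2.84 ± 0.58. Its levels were 6.22, 3.04 and 4.205 CPM in basal and 11.7, 26.5 and 23.4 CPM in KCl samples at 23DIV, and 12.8, 11.7 and 9.21 CPM and 9, 6.38 and 5.77 CPM at 7DIV. Cartpt, the CART peptide gene, changed by 1.83 ± 0.38 and -0.84 ± 0.33, a difference of 2.67 ± 0.50. Ero1a, an oxidase of ER folding that is induced by hypoxia, changed by 1.79 ± 0.27 and -0.51 ± 0.44, a difference of 2.30 ± 0.52. Gipr, a peptide hormone receptor gene, changed by 1.41 ± 0.29 and -0.78 ± 0.36, a difference of 2.19 ± 0.46. In these 4 genes the response at 7DIV alone did not pass the test (adjusted p = 0.585, 0.256, 0.708 and 0.353 by edgeR in the same order).

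With a more negative response at 23DIV, Tmem255b changed by -0.66 ± 0.40 at 23DIV and 3.09 ± 0.76 at 7DIV, a difference of -3.76 ± 0.87, and its 7DIV levels were 1.42, 0 and 0.813 CPM in basal and 9.86, 7.66 and 4.07 CPM in KCl samples. The difference was -3.04 ± 0.62 for Jade2, -2.46 ± 0.48 for Yy2 and -2.33 ± 0.52 for Unc80, a subunit of the sodium leak channel complex. Of these 4, Yy2 was called at 23DIV (-1.81 ± 0.33), and Tmem255b, Jade2 and Unc80 were called at 7DIV, where they rose by 3.09 ± 0.76, 1.98 ± 0.52 and 2.14 ± 0.44. Tmem255b overlaps Gas6, Jade2 overlaps Gm30110 and Unc80 overlaps Gm39655.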

How the results depend on the processing

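The 574 calls for KCl 180 min against basal became 762 with edgeR's likelihood ratio test, 649 with DESeq2, 574 with RLE size factors, 724 without a filter, 553 with filterByExpr and 419 with counts thinned to the smallest library, all within 1.5 times. They were 360 with counts summed over transcripts and 350 in a fit on the compared groups only, where 72.0% were rises against 61.0%. Leaving out 1 library gave 230 to 886, and 1118 without replicate 1 of both groups, an alternative chosen after the data were seen. KCl 180 min against 15 min (106 calls) gave 242 with the likelihood ratio test, 211 with DESeq2, 327 without a filter, 64 thinned, 43 summed, 5 on the compared groups only, and 25 to 259 with 1 library left out. KCl against 4APBic (62) gave 171, 149 and 267 by the first 3 of these, 32 summed, 0 on the compared groups only, and 6 to 100 with 1 library left out. The difference between ages (91) gave 251, 216 and 305, 45 on the compared groups only, and 36 to 288. The stimuli experiment (92) gave 179 with the likelihood ratio test, 150 without a filter, 43 summed, 179 on the compared groups only, and 23 to 60. The causes were not tested.

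The fit with the replicate number as a block called 508 genes in the main comparison, 483 of them shared with the 574, and 38 in the difference between ages. Samples with the same number did not deviate together (r of -0.25, -0.09 and -0.07), so the numbers were not taken as pairs, and replicate 1 of each group correlated better with other numbers.

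Of the 24 named genes of the main comparison, Ccnb2 lost its call under RLE, filterByExpr, thinning, the block and the compared groups only, Nmral1 and Pclaf under 4 and 3 of the settings other than leaving out a library, Rasip1 under 3, Kcnmb4os2 under 2, and Ccna2 and Car6 under 1. No direction reversed among these 24 genes. Depth limits the low genes: Klf4 rested on 12, 5 and 2 counts in the basal samples.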

Other observations

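The genes in this section were chosen after their values were seen, and none of them is given with an explanation. Among the 224 genes that fell were further genes of DNA replication and mitosis. Pimreg, a mitotic regulator, had 6.397, 2.86 and 2.77 CPM in basal and 0.779, 0.373 and 0 CPM in KCl samples (-3.21 ± 0.70, edgeR adjusted p = 0.00516), and kept its call in each of the 6 fits with 1 library left out. Trip13 (-2.43 ± 0.72), Cenph (-1.88 ± 0.52), Nusap1 (-1.85 ± 0.56) and Hmmr (-1.82 ± 0.51), which act at kinetochores or the spindle, were also called lower. So were Cdca3 (-1.55 ± 0.43) and the replication helicase gene Mcm5 (-1.18 ± 0.35). These stand beside Ccna2, Pclaf, Ccnb2, Top2a and Rrm2 of the report. Their part in the lower sum of dividing progenitor markers was not tested.

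Kdelr3, a receptor that returns escaped proteins to the ER, had 5.88, 2.50 and 6.75 CPM in basal and 16.9, 34.7 and 33.7 CPM in KCl samples (2.46 ± 0.43, edgeR adjusted p = 0.000585). The prolyl hydroxylase gene P4ha2 rose by 1.80 ± 0.35 and the lysyl hydroxylase gene Plod2 by 1.96 ± 0.51, and Plod2 lost its call without basal replicate 2, basal replicate 3 or KCl replicate 3 (log2 fold change from 1.68 to 2.22). The carbonic anhydrase gene Car12 rose beside Car6 and Car9, from 37.7, 11.4 and 20.1 CPM to 91.7, 147 and 115 CPM (2.35 ± 0.43).

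Regulators outside the lists were also among the rises. Tet2, which oxidizes 5-methylcytosine, rose by 1.60 ± 0.34, Tiparp, a target of the aryl hydrocarbon receptor, by 1.56 ± 0.26 and the zinc finger gene Rlf by 1.14 ± 0.24. Synpo, a spine apparatus gene, was lower by -1.32 ± 0.28 and had 1.10 ± 0.29 in the stimuli experiment, where it did not pass the test (adjusted p = 0.0537 by edgeR).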
